A study of Mus musculus with 6 samples.

Results

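The genes described here encode the enzymes that place acetyl groups on lysines of histones and other proteins, and the proteins that bind the acetylated lysines or work beside those that do. They were chosen by symbol, as 10 acetyltransferases (writers) and 25 bromodomain proteins and partners (readers), and all 35 were found among the 19938 genes measured. The tissue was frontal cortex, from mice of the strain 129S6/SvEv and of wild type genotype, 8 to 12 weeks old. Of the 6 libraries, 3 came from mice injected intraperitoneally with SAHA (suberoylanilide hydroxamic acid, or vorinostat) at 20 mg per kg over 21 days, and 3 from mice given the vehicle, named saline in the sample titles. The mice were killed 1 day after the final injection, and both groups shared strain, genotype and tissue. The labels do not say that each library is a separate mouse, so the p-values below cover only the spread among these libraries, and that spread may be technical.

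Histone acetylation is set by writers, which transfer the acetyl group from acetyl-CoA, and by deacetylases, which remove it. A bromodomain is a bundle of helices with a pocket for acetyl-lysine, and many coactivators and chromatin remodellers carry one. In neurons, p300 and CBP are coactivators of CREB in activity-dependent transcription. SAHA inhibits the zinc-dependent deacetylases and so acts on the opposing side of the same reaction. The arrays measured RNA, and neither acetylation of histones nor the activity of these enzymes was measured.

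Promoter sequences are shown, chosen after the values were seen, for the 2 members with the smallest p (Hat1 and Kat8, both with lower means in SAHA) and for the 2 members whose SAHA values all lay above the saline values (Brpf3 and Baz2a). Each is the 250 bases before 1 start site, from RefSeq in build GRCm38.p6, printed 5′ to 3′ on the gene's own strand, which is the plus strand for all 4 genes. Capitals mark a match, on either strand, to the GC box GGGCGG, the CCAAT box CCAAT, the cAMP response element TGACGTCA or the ETS motif CCGGAAG. None of these motifs contains another, though matches may overlap.
Hat1, chr2:71389010-71389259: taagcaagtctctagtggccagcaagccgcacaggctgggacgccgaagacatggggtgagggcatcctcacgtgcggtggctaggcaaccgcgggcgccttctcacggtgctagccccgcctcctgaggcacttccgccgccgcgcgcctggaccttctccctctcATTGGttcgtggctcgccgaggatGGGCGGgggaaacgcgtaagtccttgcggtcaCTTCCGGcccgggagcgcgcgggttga
Kat8, chr7:127912267-127912516: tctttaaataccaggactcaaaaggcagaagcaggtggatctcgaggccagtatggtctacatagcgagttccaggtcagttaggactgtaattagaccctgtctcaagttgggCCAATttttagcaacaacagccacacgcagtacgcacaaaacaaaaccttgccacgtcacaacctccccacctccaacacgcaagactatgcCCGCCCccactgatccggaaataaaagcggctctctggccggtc
Brpf3, chr17:28800876-28801125: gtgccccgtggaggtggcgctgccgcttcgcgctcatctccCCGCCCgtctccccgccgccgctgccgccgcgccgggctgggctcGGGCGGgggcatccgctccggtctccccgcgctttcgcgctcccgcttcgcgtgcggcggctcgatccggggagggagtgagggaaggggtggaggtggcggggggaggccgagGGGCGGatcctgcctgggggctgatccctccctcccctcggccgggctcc
Baz2a, chr10:128092533-128092782: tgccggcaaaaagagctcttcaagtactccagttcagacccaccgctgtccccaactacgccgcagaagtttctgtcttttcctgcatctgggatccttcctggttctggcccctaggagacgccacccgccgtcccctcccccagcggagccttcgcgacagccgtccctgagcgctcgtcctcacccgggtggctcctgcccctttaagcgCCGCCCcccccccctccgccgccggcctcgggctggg

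The Hat1 promoter holds 27 CpG dinucleotides, that of Kat8 10, that of Brpf3 34 and that of Baz2a 20. Promoters were matched for 29 of the 35 members, with a median of 25 CpG in 250 bases, where the 27025 genes with a promoter had a median of 6 and the 17492 protein-coding genes among them a median of 10. A GC box was found in 21 of the 29 member promoters (72.4%) and in 42.7% of protein-coding promoters. The CCAAT box was in 9 of the 29 (31.0%) and in 36.3% of protein-coding promoters. The cAMP response element was in 2 of the 29 (6.90%) and 2.01%, and the ETS motif in 3 of the 29 (10.3%) and 9.13%. These are matches of letters only. Where a gene had several start sites, the first listed was taken.

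The 6 arrays had median log2 signals between 6.66 and 6.75. Saline replicate 1 differed from the other libraries in Xist, the RNA of the inactive X chromosome, at a log2 signal of 10.91 against 4.63 to 4.88, with the Y-linked gene Eif2s3y at 9.20. SAHA replicate 3 had Eif2s3y at 7.80, where the other libraries had 9.18 to 9.25. Both libraries were kept, and the counts of members and several of the differences are also given with both left out. Of the markers of excitatory cortical neurons, 6 of 7 were measured and all 6 lay at or above the median signal of all genes. In 8 of 8 marker lists for cortical, striatal, glial, choroid plexus and blood cells the range of summed signal overlapped between saline and SAHA. With both libraries left out it overlapped in 6 of 8. The summed linear signal of the oligodendrocyte markers was then 2722 to 2739 in saline and 2342 to 2385 in SAHA, with 5 of 5 markers lower at a median of -0.23 log2, and that of the microglia markers 1227 to 1233 and 1183 to 1201. At an unadjusted p under 0.05 in limma, over all libraries, lay 6 of the 43 markers, where 17.4% of all genes did. Those higher in SAHA were Aqp1 of the choroid plexus by 0.42 log2 and S100a8 and S100a9 of blood cells by 0.46 and 0.21. Their group means, at most 6.66, lay below the median signal, where 27.7% of all genes were lower in SAHA. In the choroid plexus list 5 of 6 were higher, with Ttr lower at -0.29, and in the blood list 4 of 4. After quantile normalization the list medians of 0.14 and 0.13 log2 were 0.033 and 0.066. The differences of Neurod6 (excitatory neurons), Vip (interneurons) and Aif1 (microglia) were -0.23, -0.20 and -0.21. In these lists 3 of 6, 4 of 6 and 3 of 6 markers were lower. The part of these cell types in the members' differences was not tested. In bulk tissue, fewer cells of a type and less RNA per cell cannot be told apart.

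The comparison asks whether RNA of the acetylation machinery differs after repeated injection of SAHA. No acetyltransferase or reader was called: at an adjusted p under 0.05 (limma, Benjamini-Hochberg over all genes) lay 0 of 35, as did 0 of 19938 genes (0%). The lowest adjusted p of a member was 0.264. Differences between the group means, SAHA minus saline, were small, from -0.22 log2 for Hat1 to 0.13 log2 for Brpf1. At an unadjusted p under 0.05 in limma lay 2 members, Hat1 and Kat8, both lower in SAHA. Among all genes 17.4% lay under it, 5.56% with a lower and 11.9% with a higher mean in SAHA.

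The 95% confidence intervals of the limma fit lay within 0.3 log2 of 0 for 30 of the 35 genes. They did so for 10965 of all 19938 genes and for 7351 of the 9969 genes with at least the median signal. The 5 exceptions among the 35 were Hat1, Kat8, Kat2b and Trim33, whose intervals reached lower, and Brpf1, whose interval reached 0.35. Over all 35 genes the intervals spanned -0.44 to 0.35 log2. A p above the threshold does not show that 2 means were the same, and these bounds give the sizes that the data still allow.

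The means were more often lower than higher in SAHA: 8 of 10 writers and 20 of 25 readers were lower, where 47.1% of all genes were. The direction of a difference moved with the signal of the probe set in these arrays. In the brighter part of the array, the 9969 genes with at least the median signal, 66.4% had a lower mean in SAHA, and 32 of the 35 members were in this part, 21 of them in the upper 2 of 10 equal bins of signal. In those upper 2 bins 77.8% and 82.6% of all genes were lower, with median differences of -0.059 and -0.051 log2. The median difference was -0.074 for writers and -0.057 for readers, against 0.011 for all genes and -0.039 for the brighter 9969. After quantile normalization, which gives all arrays the same distribution of signal, 6 of 10 writers and 12 of 25 readers were lower, with medians of -0.018 and 0.00057. After cyclic loess normalization 5 of 10 and 15 of 25 were lower, with medians of -0.015 and -0.0058. The share of all genes that were lower was then 49.4% and 49.7%. Without saline replicate 1 and SAHA replicate 3, 8 of 10 writers and 18 of 25 readers were lower, where 49.4% of all genes and 65.6% of the brighter 9969 were. The part that the shift with signal has in the members' differences was not tested.

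**Figure D1:**
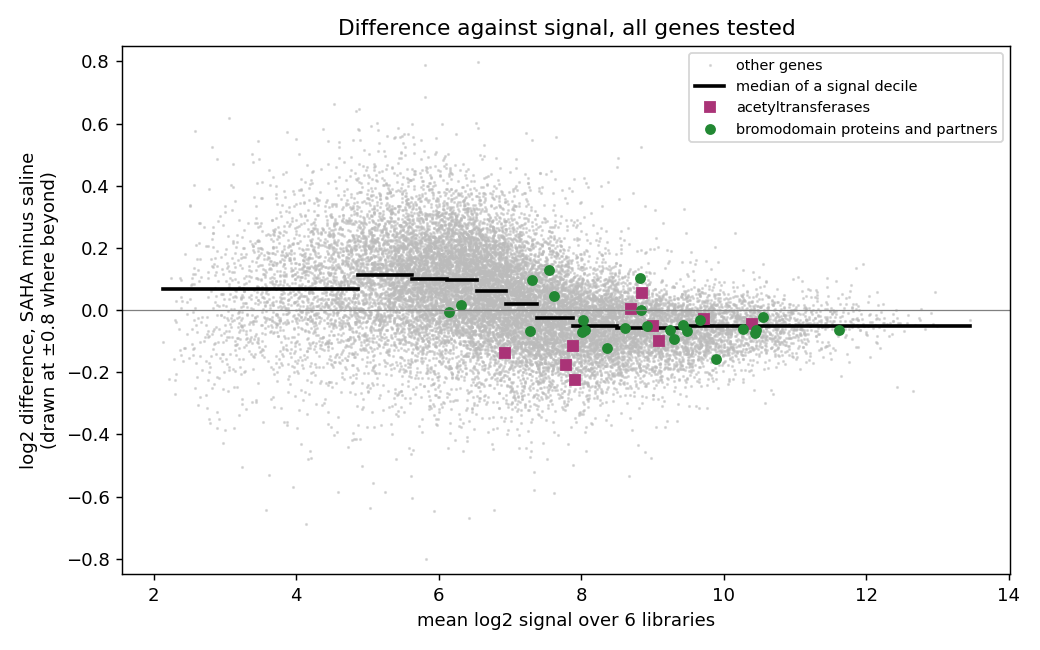
Each point is a gene, with its mean log2 signal over 6 libraries on the horizontal axis and its log2 difference, SAHA minus saline, on the vertical axis; squares are acetyltransferases, large circles are bromodomain proteins and partners, and black bars are medians of 10 equal bins of signal. The bars fall from 0.11 in the second bin to -0.059 in the ninth, and 21 of the 35 members sit in the upper 2 bins.

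Groups did not overlap for 10 of the 35 members, 8 of them lower in SAHA and 2 higher. Over all genes 23.9% did not overlap, 10.4% lower and 13.6% higher, and among the brighter 9969 genes 17.4% were lower and 7.13% higher without overlap. The lower members were Hat1, Kat5, Kat7 and Kat8 among the writers and Brd2, Ep400, Smarca2 and Trim24 among the readers, and the higher ones were Brpf3 and Baz2a. Without saline replicate 1 and SAHA replicate 3, 14 members did not overlap, 12 of them lower, where 42.3% of all genes did not overlap and 19.8% were lower without overlap, a share of 29.2% in the brighter 9969.

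Ep300 and Crebbp encode p300 and CBP, paralogous coactivators that acetylate histone H3 and many transcription factors and that carry a bromodomain themselves. The log2 signal of Ep300 was 9.75, 9.71 and 9.73 in saline replicates 1 to 3 and 9.59, 9.82 and 9.69 in SAHA replicates 1 to 3. The SAHA values lay on both sides of the saline values, and the spread in SAHA (SD 0.12, n = 3) was wider than that in saline (SD 0.022, n = 3). Crebbp was at 10.38, 10.42 and 10.45 in saline and at 10.30, 10.44 and 10.38 in SAHA, again with overlap. The differences were -0.030 log2 (SE 0.072) for Ep300 and -0.046 (SE 0.063) for Crebbp. Their limma intervals, -0.20 to 0.14 and -0.19 to 0.10, hold 0. The sign of the Ep300 difference turned after quantile normalization, to 0.031, and that of Crebbp after cyclic loess, to 0.010.

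Kat2a (GCN5) and Kat2b (PCAF) are the acetyltransferases of the SAGA and ATAC coactivator complexes. Kat2a was at 8.76, 8.74 and 8.58 in saline and at 8.72, 8.68 and 8.70 in SAHA, all within the saline range. Its difference of 0.0024 log2 (SE 0.067) was among the smallest of the 35, and its sign turned after median centring. Kat2b was at 6.93, 7.04 and 7.02 in saline and at 6.89, 6.68 and 6.999 in SAHA. SAHA replicate 2 was the lowest library and SAHA replicate 3 lay among the saline libraries. The difference of -0.14 log2 (SE 0.089) had an adjusted p of 0.439 in limma; with SAHA replicate 3 left out it was -0.21, and with SAHA replicate 2 left out -0.049.

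Hat1 acetylates newly made histone H4 before it is assembled into chromatin. It was at 8.20, 7.88 and 7.97 in saline and at 7.74, 7.87 and 7.77 in SAHA. The groups did not overlap, but saline replicate 2 and SAHA replicate 2 were close together and saline replicate 1 stood above the rest. The difference was -0.22 log2 (SE 0.091), with a 95% interval of -0.44 to -0.014, a change of -14.4% on the linear scale, and an adjusted p of 0.264 in limma. With saline replicate 1 left out it was -0.13, and without that library and SAHA replicate 3 it was -0.12 (SE 0.089), with an adjusted p of 0.677. Neither Hat1 nor Kat8 was then at an unadjusted p under 0.05 in limma, while Kat2b was, as were 10.4% of all genes. No member was under it without saline replicate 1 alone, at a lowest adjusted p of 0.430, or without SAHA replicate 1 alone, at 0.428. Of all 19938 genes 2425 and 2582 were under it in these fits. With SAHA replicate 2 left out 3 members were under it, Hat1, Kat8 and Trim33, where 3874 genes were. With saline replicate 2 or 3 or SAHA replicate 3 left out 1 member was, Hat1, Kat8 and Kat2b in that order. The genes under it then numbered 2992, 3086 and 2817.

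The MYST family holds Kat5, Kat6a, Kat6b, Kat7 and Kat8, and 4 of these 5 had lower means in SAHA, with Kat6a higher. After quantile normalization 3 of 5 were lower, since Kat6b turned to 0.0082. Kat8 (MOF), which acetylates lysine 16 of histone H4 in the MSL and NSL complexes, was at 7.94, 7.86 and 7.80 in saline and at 7.69, 7.79 and 7.59 in SAHA. The groups did not overlap, with SAHA replicate 2 just below saline replicate 3. Its difference was -0.18 log2 (SE 0.073), with a 95% interval of -0.35 to -0.0095 and an adjusted p of 0.267 in limma. It was -0.093 (SE 0.082), at an adjusted p of 0.738, without saline replicate 1 and SAHA replicate 3, so the size of the difference depended on these libraries.

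Kat5 (TIP60), the acetyltransferase of the NuA4 complex, was at 7.99, 7.96 and 7.90 in saline and at 7.75, 7.88 and 7.86 in SAHA. Kat7 (HBO1), which acetylates histones H3 and H4 with scaffold proteins of the Jade and Brpf families, was at 9.19, 9.10 and 9.10 in saline and at 8.95, 9.07 and 9.08 in SAHA. In both genes SAHA replicate 1 was the lowest library and the other SAHA values lay close under the saline values. The differences were -0.12 log2 (SE 0.063) for Kat5 and -0.099 (SE 0.064) for Kat7, at adjusted p of 0.369 and 0.444 in limma, and -0.083 and -0.035 after quantile normalization. Kat6a (MOZ) and Kat6b (MORF), paralogs that acetylate histone H3, differed by 0.055 (SE 0.069) and -0.050 (SE 0.061), and both overlapped between groups.

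**Figure D2:**
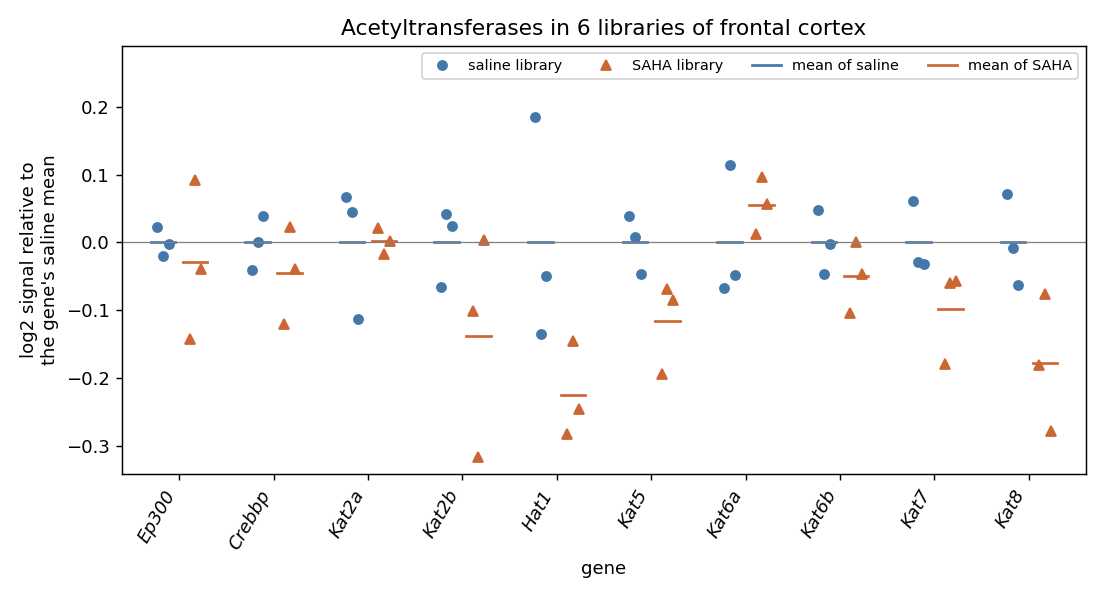
For each of the 10 acetyltransferases, points give the log2 signal of each library relative to the gene's mean over the 3 saline libraries, with circles for saline, triangles for SAHA and short lines for group means. All 3 triangles lie below all 3 circles for Hat1, Kat5, Kat7 and Kat8, by a narrow margin in each.

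As a set, the writers were lowest in SAHA replicate 1. The median over the 10 genes, relative to each gene's saline mean, was 0.044, -0.0042 and -0.039 in saline replicates 1 to 3 and -0.13, -0.039 and -0.043 in the SAHA replicates. Saline replicate 3 and SAHA replicates 2 and 3 were therefore alike in this measure. For the 25 readers the saline medians were 0.0023, 0.0016 and -0.000095, and the SAHA medians -0.053, -0.012 and -0.047, so the groups did not overlap. The brighter 9969 genes did the same, at 0.013, -0.0012 and -0.014 in saline and -0.062, -0.018 and -0.031 in SAHA. The difference between writers and readers was not tested.

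Brd1, Brpf1 and Brpf3 are paralogous scaffolds that hold MYST acetyltransferases in multi-subunit complexes and read acetyl-lysine through a bromodomain. All 3 had higher means in SAHA, and did so after quantile normalization and cyclic loess, but Brd1 turned to -0.0035 when saline replicate 2 was left out. Brpf3 was at 7.25, 7.24 and 7.28 in saline and at 7.32, 7.39 and 7.34 in SAHA, without overlap. Its difference was 0.097 log2 (SE 0.056), with an adjusted p of 0.394 in limma, and it stayed between 0.058 and 0.11 over the alternative settings. Brpf1 differed by 0.13 (SE 0.095), the highest mean difference among the 35 genes, with saline replicate 2 at 7.30 and the other 5 libraries between 7.53 and 7.73. Without saline replicate 2 the Brpf1 difference was 0.037. Brd1 differed by 0.047 (SE 0.070), with overlap.

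Brd2 and Brd3 are BET proteins, which bind acetylated histone tails through paired bromodomains and act in transcription elongation. Brd2 was at 9.29, 9.41 and 9.32 in saline and at 9.19, 9.28 and 9.26 in SAHA. The groups did not overlap, and the gap between saline replicate 1 and SAHA replicate 2 was narrow. The difference was -0.093 log2 (SE 0.062), with an adjusted p of 0.453 in limma, and -0.028 after quantile normalization. Brd3 was at 8.08, 8.04 and 7.97 in saline and at 8.03, 8.00 and 7.97 in SAHA, with SAHA inside the saline range. Its difference was -0.031 (SE 0.059), and the sign turned after quantile normalization, cyclic loess and the removal of saline replicate 1 with SAHA replicate 3.

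Smarca2 (BRM) and Smarca4 (BRG1) are the alternative ATPases of the SWI/SNF remodellers, Pbrm1 a subunit with many bromodomains, Brd7 a partner of Pbrm1 in the PBAF form, and Brd9 the defining subunit of the ncBAF form. All 5 had lower means in SAHA, between -0.074 and -0.031 log2, but only 2 of 5 were lower after quantile normalization and 3 of 5 after cyclic loess. Smarca2 was at 11.68, 11.65 and 11.60 in saline and at 11.60, 11.56 and 11.58 in SAHA. Smarca4 was at 9.67, 9.71 and 9.69 in saline and at 9.64, 9.68 and 9.65 in SAHA. Smarca2 did not overlap between groups by a margin below 0.01, and Smarca4 overlapped in 1 SAHA library. Differences were -0.065 (SE 0.056) for Smarca2 and -0.031 (SE 0.054) for Smarca4, with limma intervals of -0.19 to 0.064 and -0.16 to 0.095. Brd7, Brd9 and Pbrm1 differed by -0.065 (SE 0.059), -0.052 (SE 0.058) and -0.074 (SE 0.078), with overlap in each. Pbrm1 was at -0.00095 when SAHA replicate 1 was left out, and Brd7 at -0.016 without saline replicate 1 and SAHA replicate 3.

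Ep400, the SWI2/SNF2-type ATPase that exchanges histone variants in the TIP60 complex with Kat5, has no bromodomain and is a partner of the readers here. It was at 8.36, 8.42 and 8.48 in saline and at 8.34, 8.29 and 8.27 in SAHA, without overlap. Its difference of -0.12 log2 (SE 0.060) had an adjusted p of 0.333 in limma, and it was -0.076 after quantile normalization and -0.14 without saline replicate 1 and SAHA replicate 3. Brd8, the bromodomain subunit of the same complex, differed by -0.057 (SE 0.070), with overlap, and was at 0.00057 after quantile normalization and at -0.00081 with saline replicate 1 and SAHA replicate 3 left out.

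Bptf, Cecr2, Baz1a, Baz1b, Baz2a and Baz2b are large subunits that pair with ISWI-type ATPases and carry a PHD finger or a bromodomain or both. As a group they had a median of -0.0027 log2, 4 of 6 lower, with Baz2a and Cecr2 higher. Baz2a (TIP5), the subunit of the nucleolar remodeller that silences ribosomal DNA, was at 8.71, 8.81 and 8.79 in saline and at 8.82, 8.97 and 8.83 in SAHA, without overlap. Its difference was 0.10 (SE 0.067), with an adjusted p of 0.437 in limma. With SAHA replicate 2 left out it was 0.056, and after median centring 0.066. After quantile normalization it was 0.16, and Baz2a was then the only member at an unadjusted p under 0.05, a level reached by 13.2% of all genes, with an adjusted p of 0.343. After cyclic loess it was 0.16 too, at an adjusted p of 0.327, and 13.1% of all genes were under 0.05.

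The paralog Baz2b differed by -0.00067 (SE 0.068), Baz1b (WSTF) by -0.065 (SE 0.060), Bptf by -0.060 (SE 0.056), Baz1a (ACF1) by -0.0047 (SE 0.076) and Cecr2 by 0.017 (SE 0.078), each with overlap. Baz1a and Cecr2, with Kat2b, were the 3 members below the median signal. After quantile normalization Baz1a was at -0.098 and Cecr2 at -0.075, so that both moved down while most members moved up. Baz2b then lay at 0.050.

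The remaining readers belong to several families. Trim24 and Trim33, which join a PHD finger and a bromodomain to a TRIM ubiquitin ligase, differed by -0.072 (SE 0.058) and -0.16 log2 (SE 0.084). Trim24 was at 8.04 in each saline library and at 7.91, 8.02 and 7.97 in SAHA. Trim33 was at 10.04, 9.96 and 9.91 in saline, and SAHA replicates 1 and 3 lay lower, at 9.74 and 9.72, while SAHA replicate 2 was within the saline range at 9.98. The Trim33 difference was the greatest among the readers, at an adjusted p of 0.361 in limma, which was 0.170 without SAHA replicate 2, where the difference was -0.24; it was -0.076 without saline replicate 1 and SAHA replicate 3.

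Brwd1 and Phip, which combine WD repeats with bromodomains, differed by -0.047 (SE 0.056) and -0.022 (SE 0.055), and both signs turned after quantile normalization. Atad2 and Atad2b, AAA ATPases with a bromodomain, differed by -0.069 (SE 0.097) and -0.066 (SE 0.066). Taf1, the largest subunit of the general factor TFIID, with a tandem bromodomain, differed by -0.067 (SE 0.061) and was at 0.0024 after quantile normalization. With saline replicate 1 and SAHA replicate 3 left out Taf1 was at -0.032 and Atad2 at 0.014. All 5 genes overlapped between groups.

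**Figure D3:**
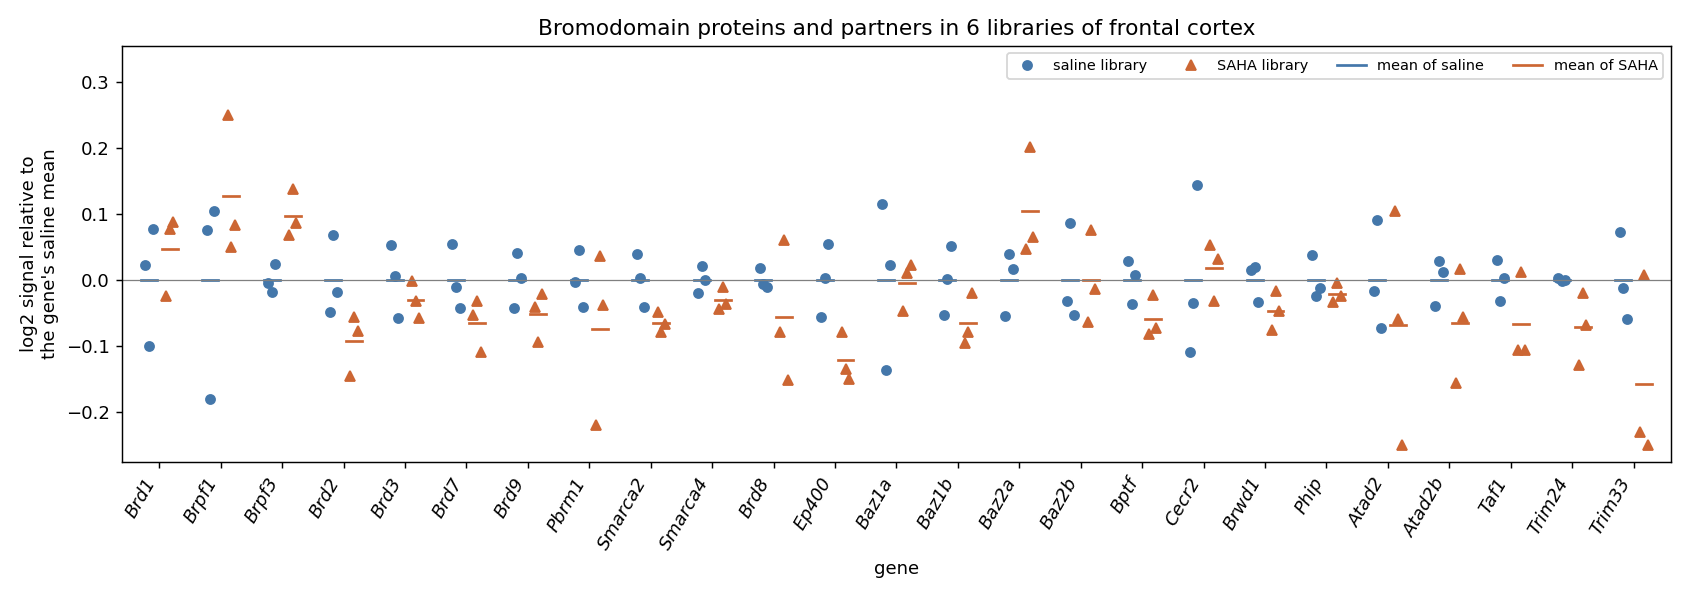
For each of the 25 bromodomain proteins and partners, grouped by family, points give the log2 signal of each library relative to the gene's saline mean, with circles for saline, triangles for SAHA and short lines for group means. The triangles lie above all circles for Brpf3 and Baz2a and below all circles for Brd2, Smarca2, Ep400 and Trim24, while the other 19 genes overlap.

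Of the 35 genes 32 had 1 probe set, and the 3 others had several that disagreed in size or sign. For Bptf the brighter probe set differed by -0.060 log2, with overlap, and the other by 0.085, with all SAHA values above the saline values. For Pbrm1 the brightest probe set differed by -0.074 and the others by -0.26 and -0.013. The first of these was at 8.76, 8.61 and 8.58 in saline and at 8.29, 8.57 and 8.31 in SAHA, without overlap. For Atad2b the probe sets differed by -0.066 and -0.15, the latter without overlap. The probes of a whole-transcript array lie in different exons, and the parts of the transcripts that these probe sets cover were not analysed here.

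**Figure D4:**
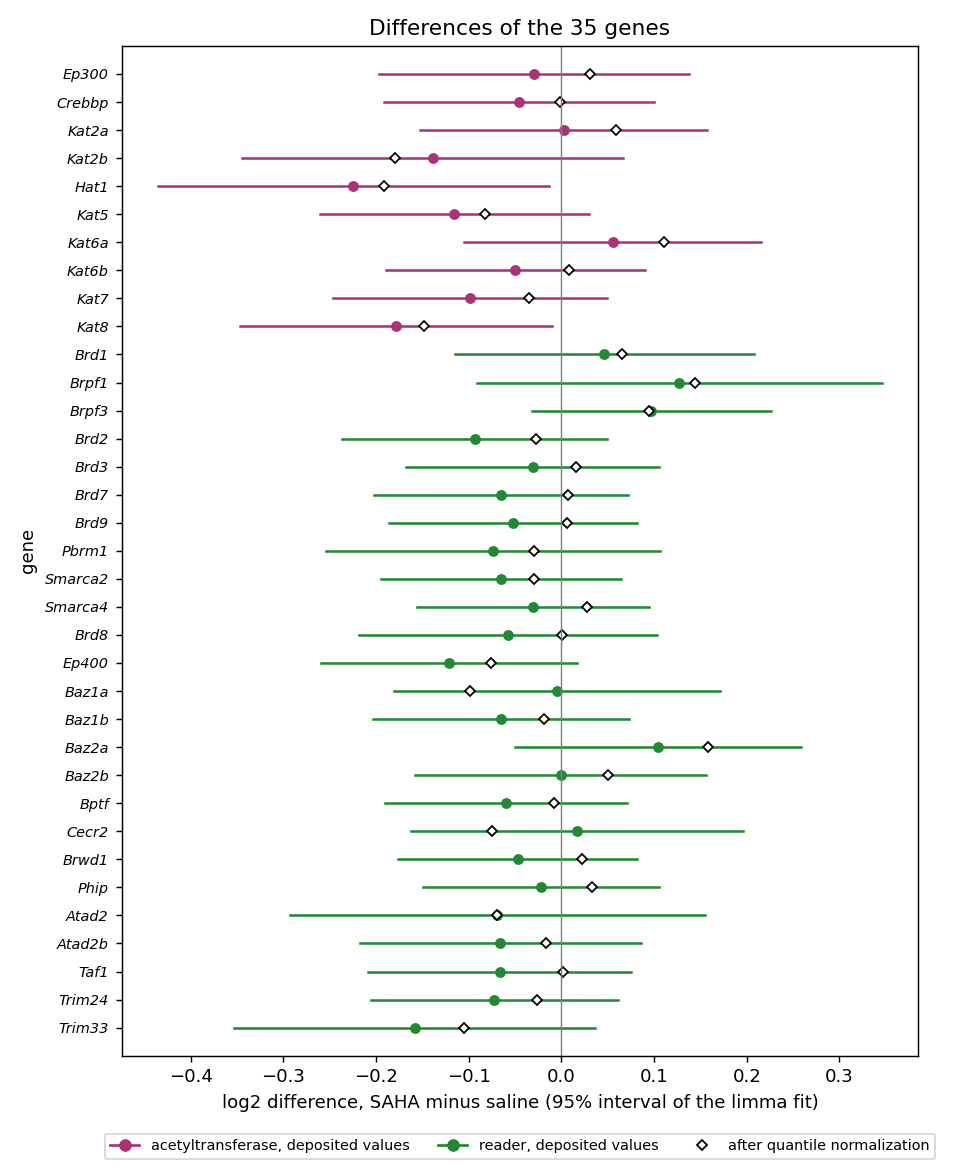
Filled circles give the log2 difference, SAHA minus saline, of each of the 35 genes on the deposited values, and lines the 95% intervals of the limma fit; open diamonds give the difference after quantile normalization. The intervals of Hat1 and Kat8 end just below 0 and all others hold 0, and for 12 genes the diamond lies on the other side of 0 from the circle.

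The sign of the difference turned for 14 of the 35 genes after median centring, quantile normalization or cyclic loess, and 22 kept the sign of their difference under the deposited values, quantile normalization and cyclic loess. Over all 15 alternative settings, which include leaving out libraries, 13 genes stayed lower and 4 stayed higher, the latter being Kat6a, Brpf1, Brpf3 and Baz2a. No member passed the limma test in any of them, at a lowest adjusted p of 0.170. With a variance trend limma called 28 of 19938 genes, with a robust trend 31, and with the brighter 9969 genes tested alone 27.

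The partners of these proteins were described from 7 lists holding 99 measured genes. None passed the limma test, and 6 were at an unadjusted p under 0.05, 4 lower and 2 higher, where 17.4% of all genes were. Lower means in SAHA were found for 68 of the 99, where 47.1% of all genes and 66.4% of the brighter 9969 were lower. Among 24 subunits of the SAGA and ATAC complexes, which hold Kat2a and Kat2b, 19 were lower, with a median of -0.035 log2 that was -0.00045 after quantile normalization. Of the 24, 23 lay at or above the median signal. The smallest p in this list were those of Zzz3, an ATAC subunit that reads histone H3, at -0.19 (SE 0.064), and Taf9, a subunit shared with TFIID, at -0.14 (SE 0.069). Zzz3 was at 8.99, 8.88 and 8.90 in saline and at 8.74, 8.80 and 8.67 in SAHA, with an adjusted p of 0.215 in limma. With saline replicate 1 and SAHA replicate 3 left out, Zzz3 differed by -0.12 and Taf9 by -0.056, and 17 of the 24 genes were lower.

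Of 13 other subunits of the NuA4 complex of Kat5, 11 were lower, with a median of -0.093 log2, and 10 were lower after quantile normalization, with a median of -0.053. Of the 13, 12 lay at or above the median signal. Yeats4, an acetyl-lysine reader of the YEATS family, was at 8.91, 9.08 and 8.88 in saline and at 8.75, 8.77 and 8.81 in SAHA, a difference of -0.18 (SE 0.071) with an adjusted p of 0.254 in limma. Morf4l1, a chromodomain protein of the same complex, differed by -0.17 (SE 0.077), with overlap, and by -0.27 with saline replicate 1 and SAHA replicate 3 left out. Of these 13 subunits, 2 did not overlap between groups, both lower in SAHA. Over all genes 23.9% did not overlap, 10.4% lower, and of the brighter 9969 genes 17.4% were lower without overlap. Of the 2 other NuA4 members described above, Ep400 did not overlap between groups and Brd8 did.

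Among 14 subunits of the other MYST complexes 9 were lower and 5 higher, with a median of -0.034 log2. After quantile normalization and after cyclic loess 6 were lower, and the median turned to 0.023 in both. The 2 genes of smallest p in this list encode subunits of complexes of Kat8. Kansl3 of the NSL complex differed by 0.18 log2 (SE 0.063), and Msl3 of the MSL complex by -0.19 (SE 0.084). They do not give the direction of either complex as a whole. Kansl3 was at 8.17, 8.34 and 8.24 in saline and at 8.44, 8.42 and 8.43 in SAHA, above all saline values. Msl3 was at 8.02, 7.93 and 7.91 in saline and at 7.87, 7.84 and 7.60 in SAHA, below all saline values. Kansl3 had an adjusted p of 0.217 in limma, and after quantile normalization the differences were 0.23 and -0.15. With saline replicate 1 and SAHA replicate 3 left out they were 0.15 and -0.070.

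The 20 other SWI/SNF subunits were split evenly, 10 lower and 10 higher, with a median of -0.0019 log2. Smarcc1, a core subunit, differed by -0.15 (SE 0.062) and did not overlap. Dpf1, the subunit of neuronal forms of the complex, differed by 0.24 (SE 0.10), with overlap. With saline replicate 1 and SAHA replicate 3 left out these were -0.098 and 0.11. All 8 ISWI remodeller genes were lower, with a median of -0.078, and 7 of the 8 lay at or above the median signal. After quantile normalization 6 of 8 were lower. Smarca1, an ISWI ATPase, differed by -0.15 (SE 0.066), and Rsf1, a histone chaperone that pairs with the ATPase, by -0.079 (SE 0.057). Of 10 further bromodomain and YEATS proteins 7 were higher and 3 lower, and 8 were higher after quantile normalization. With saline replicate 1 and SAHA replicate 3 left out 6 of the 10 were lower, so the direction of this list depended on those libraries, and its median of 0.018 log2 became -0.0050. The smallest p were those of Brdt, the BET protein of the testis, and of Sp140, a nuclear body protein. Brdt was higher by 0.13 (SE 0.061) and by 0.029 after quantile normalization. Its signal, 5.69 to 5.92 over the 6 libraries, lay in the third of the 10 bins. Genes of that bin had a median difference of 0.10, with 24.3% lower. Sp140 differed by -0.13 (SE 0.090). Sp140 was at -0.014 without both libraries.

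Of 10 genes of acetyl-CoA metabolism and transport, 8 were lower, and 5 after quantile normalization. All 10 lay at or above the median signal, and the supply of acetyl-CoA to the writers was not measured. Slc33a1, the acetyl-CoA transporter of the endoplasmic reticulum, was at 8.31, 8.26 and 8.18 in saline and at 7.91, 8.01 and 8.02 in SAHA. All SAHA values lay below all saline values. The difference was -0.27 log2 (SE 0.065), with an adjusted p of 0.138 in limma, and it was -0.23 after quantile normalization and -0.26 without saline replicate 1 and SAHA replicate 3. Slc25a1, the mitochondrial citrate carrier, differed by 0.092 (SE 0.059), with all SAHA values above the saline values.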

How the data were processed

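RNA of 6 frontal cortex libraries was measured on whole-transcript arrays. The deposited values are log2 signals per probe set, with Affymetrix Expression Console and RMA named in the submitters' processing notes; versions, builds and scan dates are not given in the sources used here. Of 35556 probe sets, 21789 pair with 1 gene symbol in the platform annotation, and the brightest by mean over 6 arrays stood for each of 19938 genes. The titles of the samples gave the groups. The groups were compared by limma 3.58.1 (lmFit, eBayes) in R 4.3.3, two-sided, with no block and no filter, with Benjamini-Hochberg adjustment over all genes and a threshold of 0.05. The fit was tested on simulated data, with independent noise, no shift with signal and changes larger than the members' differences. The precision is limited by the number of arrays, and a difference had a median SE of 0.077 log2. The members, lists and alternatives were chosen with earlier results of these data known. Values in every library are given for members without overlap or at an unadjusted p under 0.05 and for 9 chosen by name, and of each partner list the 2 genes of smallest p are named. Alternatives were scaling, a signal filter, probe set averaging, variance models, the replicate number as a block and libraries left out.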

Additional observations from a re-analysis of the deposited data

How the results depend on the processing

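Called genes over the whole array numbered 0, 27 when only the brighter 9969 genes were tested, 28 with a trend of the variance on signal and 31 with a robust form of it. Members at an unadjusted p under 0.05 numbered 2, against 1 after quantile normalization, 1 after cyclic loess, 4 with a trend, 1 without saline replicate 1 and SAHA replicate 3, and 0 to 3 with 1 library left out. The share of all 19938 genes under it was 17.4%, against 13.2%, 13.1%, 19% and 10.4% in the first 4 of these alternatives. With 1 library left out, 2425 to 3874 genes were under it. The labels do not say whether the replicate numbers pair the libraries. Deviations of same-numbered libraries correlated at -0.10, -0.079 and 0.015 across genes, which cannot show whether they were matched. With the number as a block 0 members were under 0.05 and 3088 genes were, against 3472.

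The writers' median of -0.074 log2 was -0.11 after median centring, -0.018 after quantile normalization, -0.015 after cyclic loess and -0.092 to -0.040 with 1 library left out. The readers' median of -0.057 was -0.096, 0.00057 and -0.0058 under these scalings, -0.060 over the brighter genes, -0.052 with a gene's probe sets averaged, -0.038 without saline replicate 1 and SAHA replicate 3, and -0.060 to -0.043 with 1 library left out. Readers lower in SAHA numbered 12 after quantile normalization and writers 5 after cyclic loess. The counts of lower members, and the marker sums with both libraries left out, were alternatives chosen after seeing the data.

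Signs turned for these genes, and the cause was not tested. After quantile normalization Ep300 was at 0.031, Kat6b at 0.0082, Brd3 at 0.015, Brd7 at 0.0071, Brd8 at 0.00057, Brd9 at 0.0066, Brwd1 at 0.023, Baz2b at 0.050, Taf1 at 0.0024, Phip at 0.033, Smarca4 at 0.028 and Cecr2 at -0.075. After cyclic loess Ep300 was at 0.029, Crebbp at 0.010, Kat6b at 0.0095, Brd3 at 0.0070, Brd9 at 0.0062, Brwd1 at 0.012, Baz2b at 0.057, Phip at 0.033, Smarca4 at 0.028 and Cecr2 at -0.069. After median centring Kat2a was at -0.036 and Cecr2 at -0.022, and with probe sets averaged Bptf was at 0.012. Without saline replicate 1 and SAHA replicate 3, Brd3 was at 0.0085, Baz1a at 0.039, Cecr2 at -0.045 and Atad2 at 0.014. With 1 library left out, Ep300 ranged from -0.091 to 0.027, Kat2a from -0.054 to 0.036, Brd1 from -0.0035 to 0.085, Baz1a from -0.073 to 0.053, Baz2b from -0.039 to 0.042, Cecr2 from -0.037 to 0.089 and Atad2 from -0.16 to 0.022.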
